A study of Arabidopsis thaliana with 18 samples.

Results

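The 54 leaf genes described here were expressed before induction in both lines, stayed expressed in the scrambled line, and stood at no more than 1/4 of those levels in the NAA50 line 12 and 24 h after induction. They were chosen from 23790 genes by their own levels. A gene entered when its mean was at least 5 CPM (counts scaled to a common library size, with TMM factors for composition) in the NAA50 line at 0 h and in the scrambled line at 0, 12 and 24 h. Its means in the NAA50 line at 12 and at 24 h both had to be at or below 1/4 of the lowest of those 4 means. 58 genes met this rule, and 4 of them are among 6 loci that the rule leaves out by name. All 54 remaining genes passed the filter on low counts, and 31 carry a gene symbol. A further 1324 genes met the bound with a lowest mean under 5 CPM, and are not included. Genes with no counts on either side of the bound, such as RHD6, also meet it, so this is not a count of genes that fell. With a minimum of 2 CPM the set had 81 genes.

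The data are RNA sequencing of Arabidopsis thaliana leaves, in 18 libraries of 3 per group. Each library came from 0.4 g of the 4th leaf of 4 pooled plants, 4 weeks old and kept under short days of 8 h light. The NAA50 line carries an artificial microRNA against NAA50 that dexamethasone switches on, and was sampled 0, 12 and 24 h after a spray of 50 µM dexamethasone. The scrambled line carries a scrambled artificial microRNA under the same kind of control, received the same spray and was sampled at the same times. Each construct is described as a transgenic line, and no untransformed or unsprayed plants were among the samples, so an effect of the NAA50 artificial microRNA cannot be told apart from a difference between the lines that shows only after dexamethasone. Nothing in the labels says whether the 3 libraries of a group came from separate growth runs, and the p-values measure the spread between these libraries.

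NAA50 is a catalytic subunit that adds an acetyl group to the N-terminus of proteins while they are being made. In leaves, cell expansion depends on enzymes that cut and rejoin the xyloglucan of the wall, on surface proteins such as fasciclin-like arabinogalactan proteins, and on growth regulators such as the bHLH factor HBI1 and the LONGIFOLIA proteins. Mature leaves also fix carbon and export it as sugars and amino acids through families of membrane transporters. The 54 genes held members of each of these kinds.

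NAA50 itself had a mean of 12.5 ± 0.931 CPM at 0 h, 3.67 ± 0.522 CPM at 12 h and 3.43 ± 1.14 CPM at 24 h in the NAA50 line, against 14.0 ± 0.704, 15.0 ± 1.99 and 16.9 ± 0.832 CPM in the scrambled line (SD, n = 3). Relative to the scrambled line it fell by 2.03 ± 0.18 on the log2 scale after 12 h (log2 change ± SE, edgeR quasi-likelihood test, adjusted p = 5.38e-07), and after 24 h it fell by 2.28 ± 0.18 (adjusted p = 1.47e-07). Libraries held 10389333 to 12353330 counts, so that a count of 0 allowed up to 0.224 to 0.322 CPM (3 counts, counting error only). Of 11 mesophyll markers, none was at 0 in any group, and the 5 seed and embryo markers summed to at most 1.37 CPM in any library. The mesophyll markers other than CA1, which is one of the 54 genes, summed to 21098 to 29943 CPM at 12 h and 19525 to 25689 CPM at 24 h in the NAA50 line, against 46120 to 57115 CPM and 24234 to 42995 CPM in the scrambled line. All 10 of these had lower means in the NAA50 line at both times. The 7 xylem markers summed to 49.3 to 54.8 CPM at 12 h and 114 to 157 CPM at 24 h in the NAA50 line, against 27.6 to 41.4 CPM and 21.6 to 51.0 CPM in the scrambled line. The 12 h difference lay mostly in XCP1, with a mean of 18.5 CPM against 5.12 CPM, where XCP2 averaged 14.6 against 14.1 CPM. By mean, 6 of the 7 were higher in the NAA50 line at 12 h and all 7 at 24 h. The 10 guard cell markers summed to 82.2 to 93.0 CPM and 77.4 to 88.6 CPM in the NAA50 line, against 124 to 128 CPM and 116 to 135 CPM. Of these 10, 1 had a higher mean and 9 a lower mean in the NAA50 line at 12 h. At 24 h 3 were higher and 7 lower, with KAT1 at 20.1 against 44.5 CPM and FAMA at 9.28 against 7.33 CPM. Sums of the 7 genes of the epidermis and trichome list were 1593 to 1796 CPM and 1574 to 2030 CPM, against 1201 to 1524 CPM and 1064 to 1174 CPM. However, the list name FDH was matched to AT5G14780, a formate dehydrogenase gene and not an epidermal marker. That gene averaged 717 and 551 CPM in the NAA50 line, against 298 and 510 CPM, so these sums do not describe the epidermis. By mean, 3 of the 7 were higher and 4 lower in the NAA50 line at 12 h, and 5 higher and 2 lower at 24 h. The xylem and guard cell sums thus stood apart between the lines at both times. For the 9 phloem and bundle markers the sum was 929 to 999 CPM and 945 to 1345 CPM in the NAA50 line, against 748 to 806 CPM and 670 to 724 CPM, but SUC2, a sucrose carrier of the phloem, averaged 478 and 787 CPM of it in the NAA50 line, against 166 and 239 CPM. Without SUC2 the sum was lower in the NAA50 line, at 480 to 513 CPM and 396 to 439 CPM, against 587 to 635 CPM and 440 to 468 CPM. The markers in this sum include loci that met the rule but are left out by name. They are low in the NAA50 line by that rule, so the lower sum cannot be read apart from it. By mean, 4 of the 9 markers were higher and 5 lower in the NAA50 line at 12 h, and 5 higher and 4 lower at 24 h. The part of tissue makeup in the levels of the 54 genes was not tested, and in these bulk samples fewer cells of a type cannot be told apart from less RNA per cell.

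The rule fixes how far the genes stood apart, so the following values describe them and carry no test. In the NAA50 line the 54 genes kept a median of 10.1% of the scrambled level at 12 h (2.14% to 21.9%) and 10.2% at 24 h (1.08% to 24.8%). Against the NAA50 line's own 0 h the medians were 9.76% at 12 h and 9.11% at 24 h. All 54 had their 6 NAA50 libraries of 12 and 24 h below the other 12 libraries, as 6.32% of the 18344 tested genes did. The median log2 difference between the lines was -3.30 at 12 h and -3.22 at 24 h, where all tested genes had a median of -0.03 at both times. Of the 18344 tested genes, 46.2% were called in either direction between the lines at 12 h (4018 higher and 4466 lower) and 47.9% at 24 h (4378 higher and 4416 lower). With scaling to library size alone the 12 h split was 5442 higher and 3093 lower, since the median of all tested genes moved up by 0.17 on the log2 scale, and all 54 genes stayed on the lower side.

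At most 3 of the 54 genes had no counts in any single library, and the higher of the 2 mean levels in the NAA50 line at 12 and 24 h ran from 0.348 CPM to 379 CPM. The higher of those 2 means, as a share of the lowest mean of the other 4 groups, was just inside the bound at 24.5% for GSTU27, 24.7% for SWEET17 and 24.8% for AT3G05936. Just outside it stood AT3G53100 at 25.6%, AT5G63710 at 25.8% and AT3G05900 at 25.9%.

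**Figure D1:**
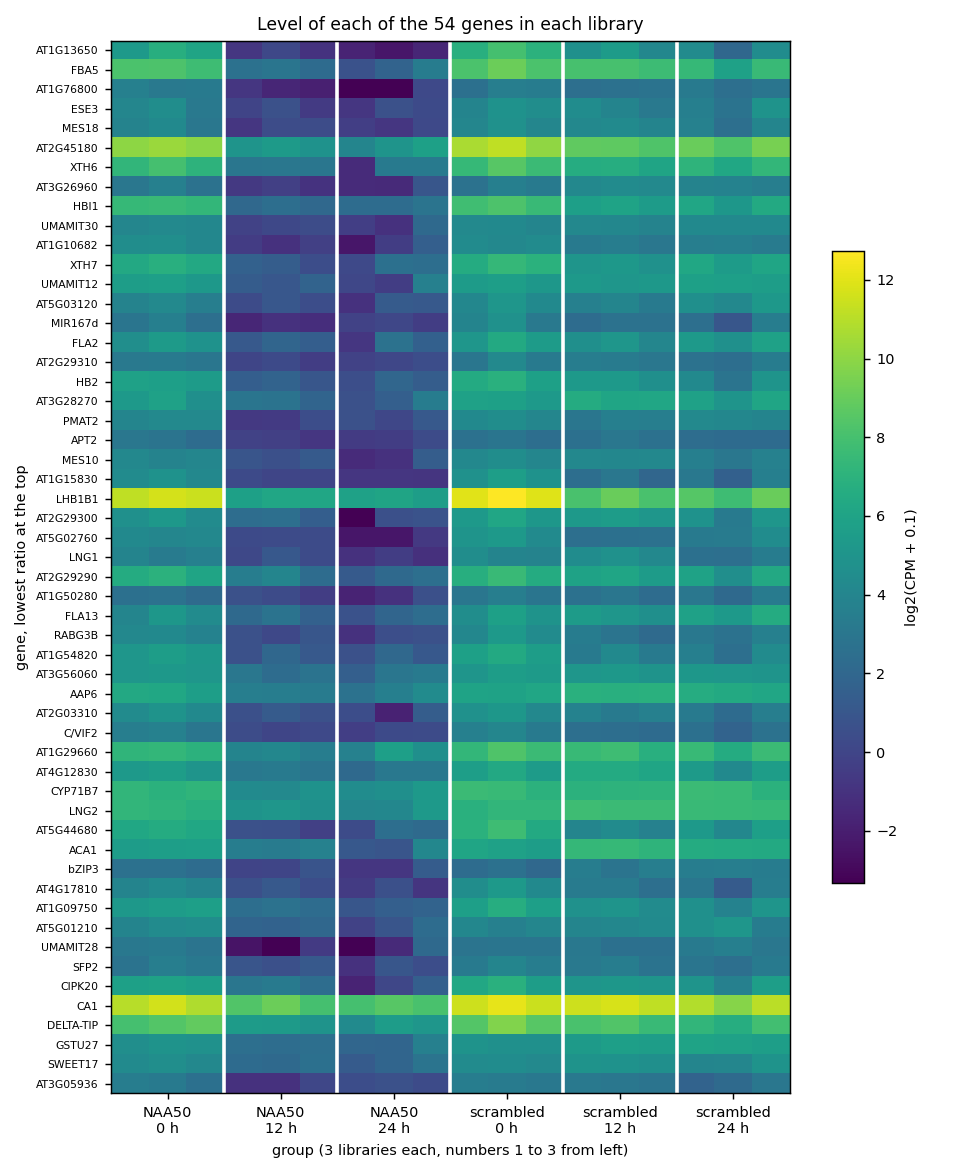
Level of each of the 54 genes (rows, lowest ratio at the top) in each of the 18 libraries (columns), as log2(CPM + 0.1) in colour. In every row the 6 NAA50 libraries of 12 and 24 h are darker than the other 12. LHB1B1 and CA1, the brightest rows, are also dimmed in those 6, and NAA50 at 24 h is darkest in library 1 for 37 of the 54 genes.

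LHB1B1 (AT2G34430), a chlorophyll-binding protein of the photosystem II antenna, had the highest level per kilobase of exon in the other 4 groups, with a mean of 1612 CPM per kb. In the NAA50 line it stood at 2298, 3322 and 2773 CPM at 0 h, at 55.4, 72.5 and 70.6 CPM at 12 h, and at 58.7, 65.1 and 49.8 CPM at 24 h. Scrambled libraries had 4019, 6770 and 3992 CPM at 0 h, 275, 540 and 281 CPM at 12 h, and 355, 219 and 538 CPM at 24 h. LHB1B1 was thus lower after 0 h in the scrambled line as well, and every NAA50 library of 12 and 24 h was below every scrambled one.

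FBA5 (AT4G26530), a fructose-bisphosphate aldolase, had the second lowest ratio of all. In the NAA50 line it stood at 285, 303 and 209 CPM at 0 h, at 6.33, 7.45 and 4.68 CPM at 12 h, and at 1.57, 3.4 and 10.7 CPM at 24 h. FBA5 in the scrambled line stood at 289, 566 and 289 CPM at 0 h, at 261, 262 and 207 CPM at 12 h, and at 169, 58.8 and 188 CPM at 24 h. The lines overlapped at 0 h and did not at 12 and 24 h, and at 12 h the NAA50 line kept 2.53% of the scrambled mean. CA1 (AT3G01500), the plastid carbonic anhydrase that interconverts carbon dioxide and bicarbonate, averaged 379 ± 153 CPM at 12 h and 303 ± 63.1 CPM at 24 h in the NAA50 line, against 2923 ± 557 and 1620 ± 627 CPM in the scrambled line (SD, n = 3). It is one of the 11 mesophyll markers above. ACA1 (AT3G52720), an alpha-type carbonic anhydrase, averaged 11.5 ± 1.37 CPM at 12 h and 6.97 ± 8.74 CPM at 24 h in the NAA50 line, against 160 ± 17.4 and 89.6 ± 3.77 CPM in the scrambled line (SD, n = 3). Its NAA50 libraries at 24 h were uneven, at 2.06, 1.8 and 17.1 CPM.

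**Figure D2:**
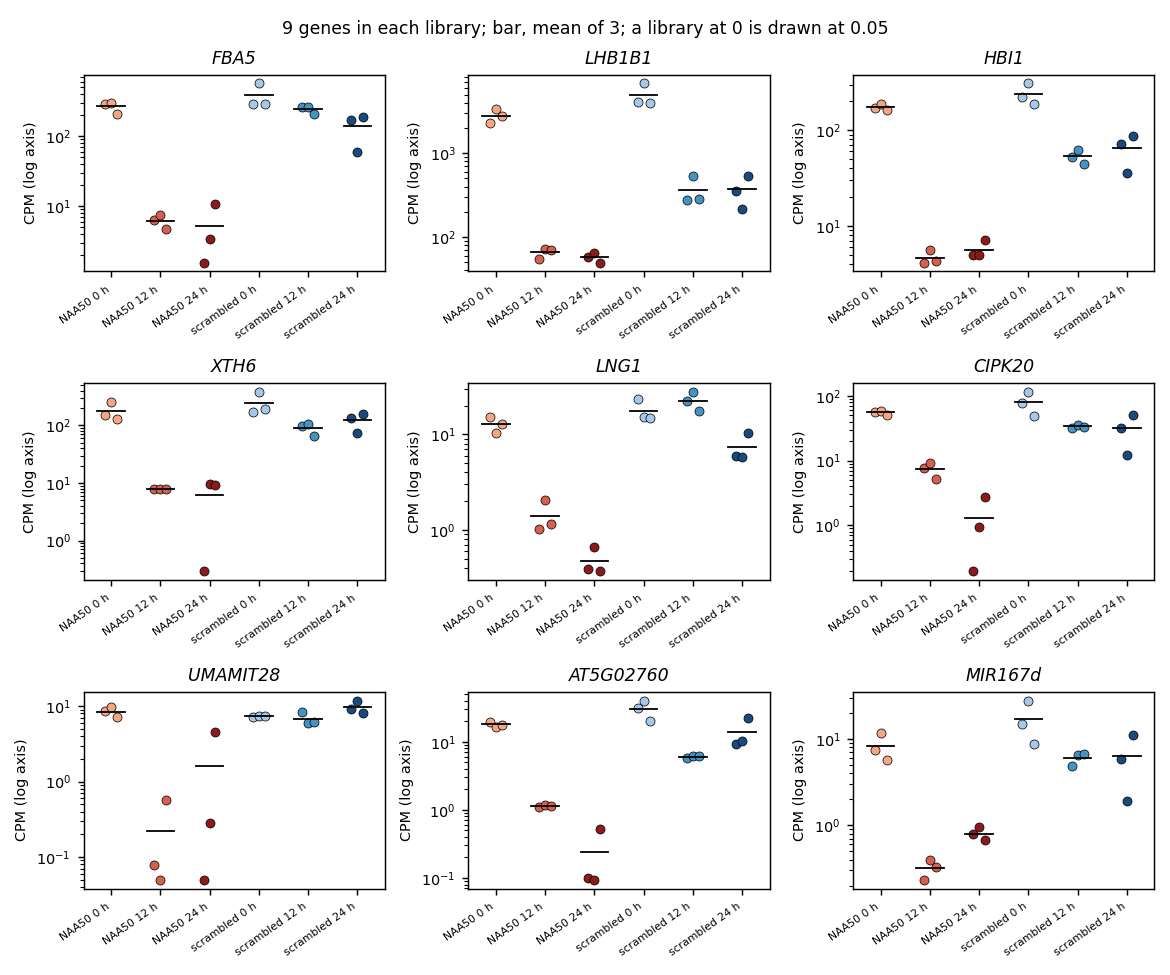
CPM (log axis, a library at 0 drawn at 0.05) of 9 genes in each library, with the mean of 3 as a bar, for the NAA50 line (red) and the scrambled line (blue) at 0, 12 and 24 h. In all 9 genes the NAA50 points of 12 and 24 h lie below every other point. AT5G02760 and CIPK20 are lower at 24 h than at 12 h in the NAA50 line, and in LHB1B1 the scrambled line is also low after 0 h.

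By annotation, 9 of the genes act at the cell wall or surface or in cell growth. XTH6 (AT5G65730) and XTH7 (AT4G37800) encode xyloglucan endotransglucosylase/hydrolases. XTH6 stood at 150, 258 and 130 CPM at 0 h, at 7.89, 8.00 and 7.80 CPM at 12 h, and at 0.295, 9.45 and 9.17 CPM at 24 h in the NAA50 line. The scrambled libraries had 171, 381 and 195 CPM at 0 h, 98.4, 104 and 65.1 CPM at 12 h, and 136, 73.9 and 159 CPM at 24 h. Its 12 h libraries in the NAA50 line were nearly alike, and at 24 h library 1 was far below the other two. XTH7 averaged 2.32 ± 0.921 CPM at 12 h and 4.1 ± 2.63 CPM at 24 h in the NAA50 line, against 32.6 ± 4.67 and 62.9 ± 15.9 CPM in the scrambled line (SD, n = 3).

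FLA2 (AT4G12730) and FLA13 (AT5G44130) encode fasciclin-like arabinogalactan proteins. FLA2 kept 11.4% of the scrambled mean at 12 h and 8.09% at 24 h, and FLA13 kept 13.8% and 5.46%. LNG1 (AT5G15580) and LNG2 (AT3G02170) encode the LONGIFOLIA proteins, which promote lengthwise growth of leaf cells. LNG1 averaged 1.4 ± 0.556 CPM at 12 h and 0.476 ± 0.161 CPM at 24 h in the NAA50 line, against 22.5 ± 5.08 and 7.41 ± 2.61 CPM in the scrambled line (SD, n = 3). LNG2 averaged 30.0 ± 4.12 CPM at 12 h and 24.8 ± 13.6 CPM at 24 h in the NAA50 line, against 199.6 ± 9.17 and 178 ± 7.35 CPM in the scrambled line. Both LONGIFOLIA genes were low in the NAA50 line at both times. AT2G45180, a lipid-transfer-type protein and the second most abundant of the 54 per kilobase, stood at 1034, 1260 and 977 CPM at 0 h, at 31.3, 43.2 and 28.9 CPM at 12 h, and at 15.5, 31.2 and 55.2 CPM at 24 h in the NAA50 line. The scrambled line had 1657, 2381 and 1063 CPM, then 449, 425 and 315 CPM, then 541, 318 and 681 CPM at the same times. AT3G26960, of the extensin and Ole e 1 family, kept 2.88% at 12 h and 6.10% at 24 h. AT1G29660, a GDSL-type lipase, kept 8.63% and 19.3%.

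By annotation, 8 genes encode membrane transporters. UMAMIT12 (AT2G37460), UMAMIT28 (AT1G01070) and UMAMIT30 (AT4G01450) belong to the family that moves amino acids out of cells, and AAP6 (AT5G49630) encodes an amino acid permease for uptake. UMAMIT12 stood at 47.9, 53.9 and 37.1 CPM at 0 h, at 2.42, 1.96 and 3.37 CPM at 12 h, and at 0.982, 0.662 and 12.7 CPM at 24 h in the NAA50 line. Its scrambled libraries stood at 44.4, 51.6 and 36.7 CPM at 0 h, at 39.7, 34.5 and 37.7 CPM at 12 h, and at 56.6, 53.9 and 48.1 CPM at 24 h, so that its 0 h range there overlaps those of both later times. UMAMIT28 rested on few reads in the NAA50 line, at 8 counts over the 3 libraries of 12 h and 63 over those of 24 h, and library 3 held most of the second at 4.47 CPM against 0 and 0.284 CPM. UMAMIT30 kept 6.12% at 12 h and 9.09% at 24 h of the scrambled mean, and AAP6 kept 9.55% and 15.7%. SWEET17 (AT4G15920), a vacuolar fructose carrier, stood just inside the bound, at 18.2% and 20.5%. SFP2 (AT5G27360), of the sugar carrier family, kept 20.1% and 15.4%, DELTA-TIP (AT3G16240), a water channel of the vacuole membrane, kept 14.7% and 20.7%, and AT1G76800, of the vacuolar iron transporter family, kept 4.64% and 4.65%.

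The regulators ranged from transcription factors to kinases, a phosphatase and a microRNA gene. HBI1 (AT2G18300), a bHLH factor that promotes cell elongation, stood at 172, 190 and 161 CPM at 0 h, at 4.14, 5.57 and 4.27 CPM at 12 h, and at 4.91, 4.92 and 7.15 CPM at 24 h in the NAA50 line. Scrambled leaves had HBI1 at 223, 308 and 187 CPM at 0 h, at 52.7, 62.7 and 44.7 CPM at 12 h, and at 72.5, 35.7 and 87.5 CPM at 24 h. Like LHB1B1 it was lower after 0 h in the scrambled line, with no overlap between 0 h and the later times. ESE3 (AT5G25190), of the ERF family, kept 6.34% at 12 h and 6.46% at 24 h. bZIP3 (AT5G15830), a basic leucine-zipper factor, kept 11.8% and 10.3%, and AT4G17810, a C2H2 zinc finger protein, kept 18.7% and 11.6%. CIPK20 (AT5G45820) encodes a kinase that acts with calcium sensors of the CBL type, AT5G02760 encodes a protein phosphatase 2C, AT1G54820 a protein kinase and AT1G50280 a protein of the NPH3 family.

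MIR167d (AT1G31173) is the precursor gene of a microRNA whose family cleaves the RNAs of the auxin response factors ARF6 and ARF8. It stood at 7.46, 11.8 and 5.71 CPM at 0 h, at 0.234, 0.392 and 0.328 CPM at 12 h, and at 0.786, 0.945 and 0.671 CPM at 24 h in the NAA50 line. In scrambled leaves the precursor stood at 15.1, 27.9 and 8.82 CPM at 0 h, at 4.92, 6.58 and 6.61 CPM at 12 h, and at 5.83, 1.90 and 11.1 CPM at 24 h. The kit selects polyadenylated RNA, so these are levels of the precursor and not of the mature microRNA. The mature sequences of the family, from the RefSeq annotation of TAIR10.1, show what MIR167d shares with its relatives, with the seed (bases 2 to 8) in capitals.
miR167d: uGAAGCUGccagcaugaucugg
miR167a-5p: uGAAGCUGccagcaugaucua
miR167b: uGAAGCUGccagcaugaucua
miR167c-5p: uAAGCUGCcagcaugaucuug
The first 3 share 1 seed, and miR167c-5p has another, offset along the same core. The mature miR167d lies at chr1:11137556-11137577 on the plus strand of TAIR10.1. Its relatives and targets were chosen after their values were seen. MIR167a, with the same seed, averaged 3.48 CPM at 12 h and 2.57 CPM at 24 h in the NAA50 line, against 0.652 and 1.05 CPM in the scrambled line. MIR167a was higher in the NAA50 line by 2.4 ± 0.44 on the log2 scale at 12 h (edgeR, adjusted p = 4.82e-04), the opposite direction to MIR167d. Its 24 h difference of 1.28 ± 0.42 (adjusted p = 0.0202) lost its call without NAA50 library 1 (adjusted p = 0.0664) and without scrambled library 2 or 3 of 24 h (0.0745 and 0.0577). ARF8 fell by 0.55 ± 0.12 after 12 h (edgeR, adjusted p = 0.00124), and after 24 h it fell by 0.50 ± 0.12 (adjusted p = 0.00299). ARF6 differed by -0.29 ± 0.13 and -0.23 ± 0.13, which did not pass the test (edgeR, adjusted p = 0.0872 and 0.172). With the libraries of 12 h paired by number and fitted alone, ARF6 passed at 12 h (-0.24, adjusted p = 0.0458).

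Enzymes and other proteins of known family made up 17 of the 54, and 7 are uncharacterised. MES18 (AT5G58310) and MES10 (AT3G50440) are methyl esterases and kept 5.56% and 10.2% at 12 h and 6.39% and 9.60% at 24 h. PMAT2 (AT3G29670), a phenolic glucoside malonyltransferase, kept 7.62% and 9.06%, and APT2 (AT1G80050), an adenine phosphoribosyltransferase of purine salvage, kept 9.83% and 16.2%. HB2 (AT3G10520), a non-symbiotic hemoglobin, kept 7.63% at 12 h and 13.2% at 24 h. CYP71B7 (AT1G13110), a cytochrome P450, kept 17.1% and 17.9%, and GSTU27 (AT3G43800), a tau class glutathione transferase, kept 11.7% and 11.6%. C/VIF2 (AT5G64620), an inhibitor of invertases, kept 20.4% and 19.1%, RABG3B (AT1G22740), a small GTPase, kept 19.7% and 11.5%, and AT5G44680, of the DNA glycosylase family, kept 7.28% and 10.03%. AT5G01210, an acyltransferase, kept 19.6% and 10.5%, but 99.1% of it is overlapped by AT5G01215 on the opposite strand, and the strand setting of the counting is not given in the sources used here. The uncharacterised gene AT1G13650 had the lowest ratio of all. Its NAA50 libraries had 0.469, 1.02 and 0.411 CPM at 12 h and 0.196, 0.0945 and 0.224 CPM at 24 h (24 and 6 counts over 3 libraries), against 26.3, 45.4 and 16.9 CPM and then 21.4, 3.98 and 22.0 CPM in scrambled libraries.

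AT2G29290, AT2G29300 and AT2G29310 encode NAD(P)-binding proteins of the short-chain dehydrogenase type and lie side by side on chromosome 2, with gaps of 16 and 106 bases. They were the only members within 20000 bases of each other. In the NAA50 line they averaged 10.5, 4.55 and 0.897 CPM at 12 h and 4.12, 1.02 and 0.999 CPM at 24 h, against 58.0, 39.9 and 9.74 CPM and 55.0, 24.7 and 7.43 CPM in the scrambled line. AT2G29300 and AT2G29310 are 87.3% identical over 59.1% of the transcript of AT2G29300, below the 95% over 50% at which reads were taken as shared. The rest of the array was examined after these values were seen. The next gene, AT2G29320, was also lower in the NAA50 line, with log2 differences of -2.29 ± 0.30 at 12 h (edgeR, adjusted p = 2.20e-05) and -1.46 ± 0.30 at 24 h (adjusted p = 0.00101). AT2G29340, SAG13 and AT2G29360, farther along, differed by at most 0.61 on the log2 scale in size and did not pass the test at either time.

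**Figure D3:**
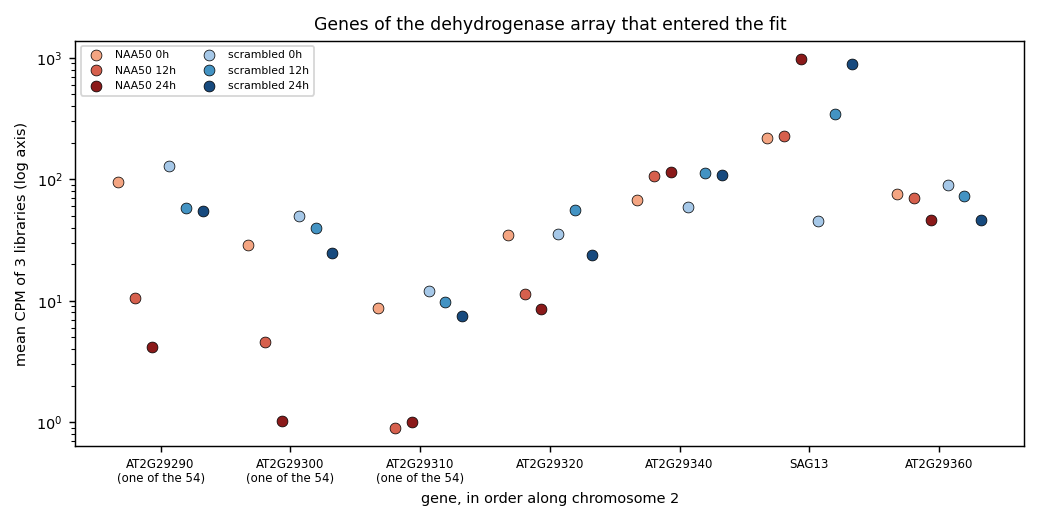
Mean CPM of 3 libraries (log axis) for the 7 genes of the array that entered the fit, in order along chromosome 2, with the NAA50 line in red and the scrambled line in blue. The 3 genes at the left and AT2G29320 have their NAA50 points of 12 and 24 h at the bottom; the 3 at the right do not.

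Differences among the groups in which the genes were expressed, and between the NAA50 line's own 12 and 24 h, were not part of the rule, although those levels entered it. Of these, the comparison of the lines at 0 h and the scrambled changes at 12 and 24 h share the scrambled libraries of 0 h, so each gives its own values only. At 0 h, 0 of the 54 genes passed the test in either direction (edgeR and DESeq2, both 0), where 0.0872% of all tested genes were higher and 0.0109% lower. Without adjustment 5 of the 54 had p under 0.05, all lower in the NAA50 line. 46 of 54 were lower in the NAA50 line, with a median log2 difference of -0.47, where all tested genes had a median of 0.00. The NAA50 line stood at a median of 72.2% of the scrambled mean (43.5% to 132%). In same-numbered libraries, which the labels do not pair, 28 of the 54 were lower in the NAA50 line for all 3 numbers and 2 were higher for all 3. For these counts, and for the 46 and the 5 above, the shares of all tested genes were not computed. Library 2 was the highest of its group in both lines, in 38 of the 54 genes in the NAA50 line (10754 CPM in sum, against 7956 and 8029 CPM in libraries 1 and 3) and in 45 in the scrambled line (18733 CPM, against 11688 and 10839 CPM). The mesophyll markers other than CA1 also stood lower at 0 h, at 48693 to 64260 CPM in the NAA50 line, against 62801 to 87689 CPM in the scrambled line, with a small overlap. The part of these libraries and of the mesophyll markers in the 0 h values was not tested, and the ranks of the libraries over all tested genes were not counted.

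Of the 54 genes, 21 fell and 5 rose in the scrambled line at 12 h relative to 0 h (38.9% lower), where 20.5% of all tested genes were lower and 23.7% higher. The samples of 0 and 24 h share a time of day, and those of 12 h stand at another, in plants with 8 h of light. In the 12 h changes, time of day cannot be told apart from the spray or the time since it. The changes between 12 and 24 h in each line also span 2 times of day. At 24 h relative to 0 h, 23 fell (42.6%) and 2 rose, where 26.5% of all tested genes were lower and 27.6% higher. The median log2 change was -0.51 at 12 h and -0.79 at 24 h, where all tested genes had 0.01 and 0.00 (and 0.12 at 24 h with scaling to library size alone). The mesophyll marker sum without CA1 moved with these falls in the scrambled line, at 62801 to 87689 CPM at 0 h, 46120 to 57115 CPM at 12 h and 24234 to 42995 CPM at 24 h, and its part was not tested. Of the 9 regulators 6 fell at each time, and of the 8 transporters 0 fell at 12 h and 1 at 24 h. Among the 17 enzymes 7 fell at 12 h and 6 at 24 h, and among the 9 wall and growth genes 3 at each time. The 7 uncharacterised genes had 4 falls at each time, and the 4 photosynthesis and carbon genes 1 and 3. Differences between these role groups were not tested. LHB1B1 fell by 3.75 ± 0.35 after 12 h (edgeR, adjusted p = 9.47e-07), and its 24 h change was -3.73 ± 0.35 (adjusted p = 2.49e-06). HBI1 fell by 2.16 ± 0.27 after 12 h (adjusted p = 1.43e-05), and its 24 h change was -1.87 ± 0.27 (adjusted p = 5.12e-05). AT5G02760 fell by 2.34 ± 0.32 at 12 h (adjusted p = 3.17e-05), and AT1G13650 fell by 3.35 ± 0.54 at 24 h (adjusted p = 1.32e-04).

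The calls in the other direction numbered 5 at 12 h and 2 at 24 h. Relative to 0 h, ACA1 rose by 1.44 ± 0.46 at 12 h (edgeR, adjusted p = 0.0189), and its call ended without scrambled library 2 or 3 of 0 h (0.0501 and 0.0579). AT3G26960 rose by 1.06 ± 0.33 (adjusted p = 0.0165), a call that ended without library 1 of 0 h or library 2 of 12 h (0.0737 and 0.0516). AAP6 rose by 0.81 ± 0.27 (adjusted p = 0.0224), and this ended without library 1 or 2 of 0 h or library 3 of 12 h (0.0588, 0.0790 and 0.0522). The other genes that rose at 12 h were GSTU27 (0.78 ± 0.28, adjusted p = 0.0351) and bZIP3 (0.96 ± 0.35, adjusted p = 0.0363), the same 2 that rose at 24 h. Their 12 h calls ended without any 1 of the 3 libraries of 0 h, without library 2 or 3 of 12 h for GSTU27 (0.0581 to 0.0963 over these), and without library 1 or 3 of 12 h for bZIP3 (0.0520 to 0.111 over these). GSTU27 rose by 1.03 ± 0.28 at 24 h (edgeR, adjusted p = 0.00634) and bZIP3 by 1.11 ± 0.35 (adjusted p = 0.0144), which ended without scrambled library 3 of 0 h (0.0517). Each of these 5 genes was thus above its 0 h level in the scrambled line at a time when it was low in the NAA50 line. Without scrambled library 2 of 0 h the 26 calls at 12 h became 16 (1 higher and 15 lower), and the 25 calls at 24 h became 19 (3 higher and 16 lower).

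**Figure D4:**
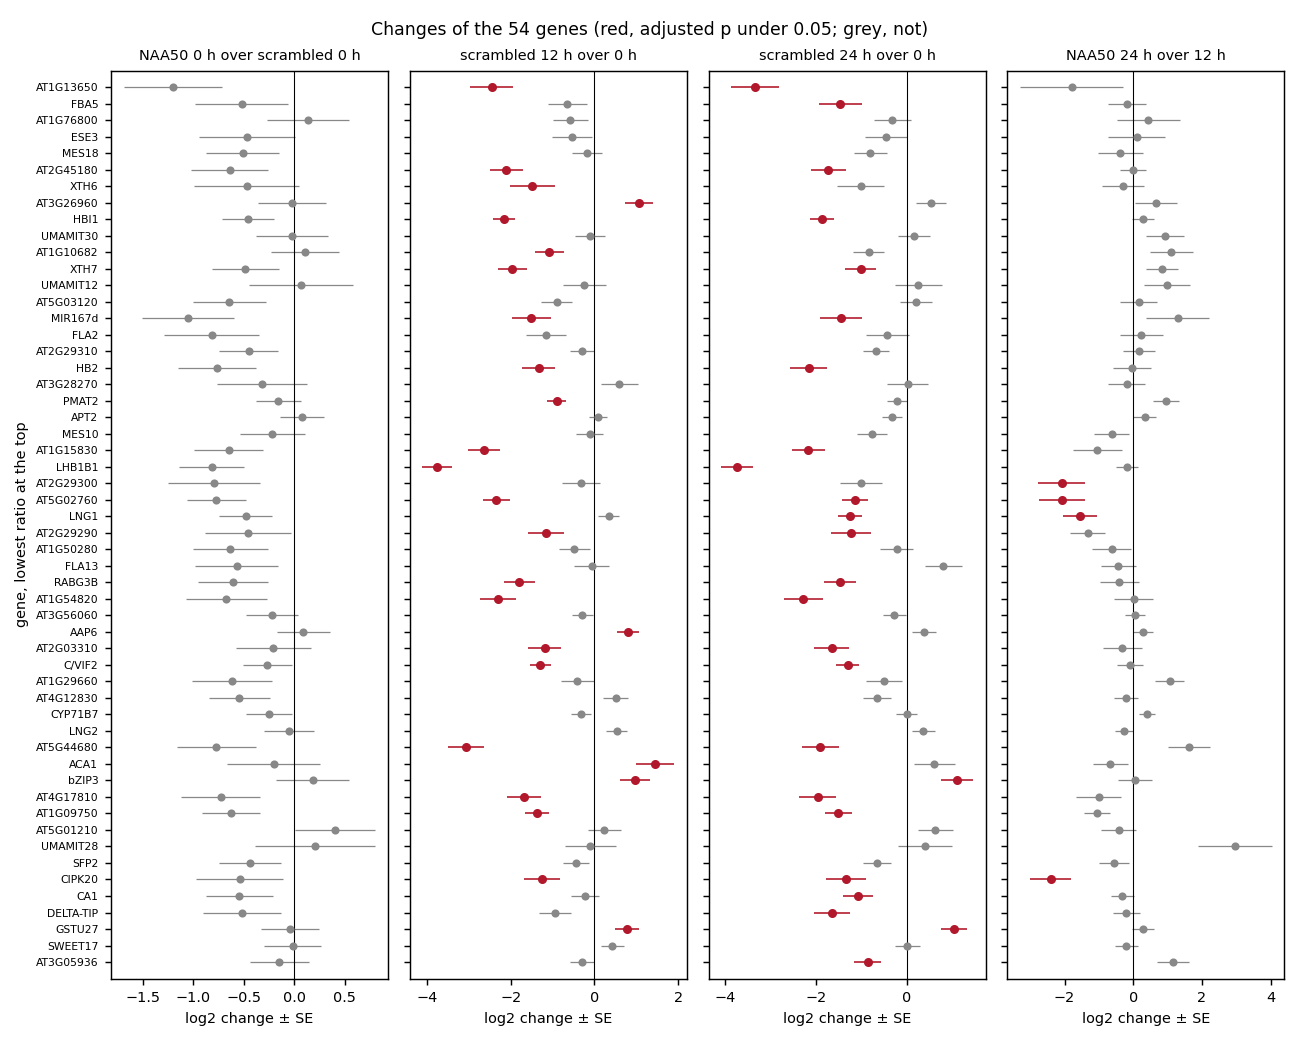
Log2 change ± SE of each of the 54 genes in 4 comparisons of groups that the rule did not set against each other. The level of each of these groups did enter the rule. Red marks an adjusted p under 0.05. No gene is red at 0 h, and the scrambled line has red points on both sides of 0, 21 lower and 5 higher at 12 h. The right panel has 4 red points, all below 0.

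Within the NAA50 line, 4 of the 54 genes fell further at 24 h relative to 12 h and 0 rose. Of all tested genes 9.69% were lower and 10.4% higher (1777 and 1901 genes, and 2272 and 1498 with scaling to library size alone). The rule caps both of these means, and over the 54 genes their medians were only 2.41 CPM at 12 h and 2.15 CPM at 24 h. The lack of rises therefore cannot be read against the share of all tested genes. CIPK20 fell by 2.41 ± 0.61 (edgeR, adjusted p = 0.0116), with 7.81, 9.25 and 5.25 CPM at 12 h and 0.196, 0.945 and 2.76 CPM at 24 h, which do not overlap. LNG1 fell by 1.56 ± 0.49 (edgeR, adjusted p = 0.0355), but not without NAA50 library 2 of 12 h or library 1 or 3 of 24 h (adjusted p = 0.170, 0.104 and 0.120). AT5G02760 fell by 2.08 ± 0.66 (edgeR, adjusted p = 0.0373), a call that held without NAA50 library 3 of 24 h and ended without any of the 5 others (0.0673 to 0.125). AT2G29300, with 5.31, 5.72 and 2.63 CPM at 12 h and 0, 1.42 and 1.64 CPM at 24 h, fell by 2.09 ± 0.68 (edgeR, adjusted p = 0.0420). Its call ended without NAA50 library 1 or 2 of 12 h (0.108 and 0.127) and without library 1, 2 or 3 of 24 h (0.121, 0.0710 and 0.0516). Without NAA50 library 3 of 24 h there were 8 calls, all lower. Without library 1 or 2 of 12 h there were 2 and 1, without library 3 of 12 h there were 7 (3 higher and 4 lower), and without library 1 of 24 h there were 6 (5 higher and 1 lower). The number and direction of these calls therefore varied with the libraries used, and CIPK20 kept its call without each single library.

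For AT5G02760 the change between 12 and 24 h also differed between the lines. It stood at 1.09, 1.18 and 1.15 CPM at 12 h and 0.0982, 0.0945 and 0.522 CPM at 24 h in the NAA50 line, against 5.83, 6.09 and 6.25 CPM and then 9.32, 10.2 and 22.1 CPM in the scrambled line. The difference in change was -3.28 ± 0.73 on the log2 scale (edgeR, adjusted p = 0.0149), the only such call among the 54 genes, where 2.34% of all tested genes were called in that direction and 4.43% in the other (429 and 813 genes). With scaling to library size alone these were 1076 and 587 genes, with 2 of the 54, both lower, as the median of all tested genes moved by -0.17. The cap that the rule sets on the NAA50 means at 12 and 24 h limits this comparison too. The NAA50 level of AT5G02760 at 24 h rests on 9 counts over 3 libraries. Without NAA50 library 3 of 24 h there were 6 such calls among the 54 genes, and without NAA50 library 3 of 12 h or scrambled library 2 or 3 of 24 h there were 2.

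The spread between libraries was wide at some times. The median coefficient of variation of the 54 genes was 26.9% at 12 h and 57.6% at 24 h in the NAA50 line, where their levels are low, and all tested genes had 10.9% and 13.5%. For the scrambled line it was 31.6% at 0 h, 17.5% at 12 h and 38.6% at 24 h, and all tested genes had 16.9%, 12.4% and 15.5%. At 24 h in the NAA50 line library 1 was the lowest of the 3 in 37 genes and library 3 the highest in 35. Scrambled library 2 of 24 h was the lowest in 36 genes, with a summed level of 2997 CPM against 4972 and 5805 CPM. The mesophyll marker sum of that group, without CA1, also spread, at 24234 to 42995 CPM, and its part was not tested. How these libraries rank over all tested genes was not counted, so the ranks may belong to the libraries as a whole.

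Outside the 54 genes, the rest of 4 gene lists that hold one of them was compared between the lines. Beside the counts below, all 18344 tested genes had 4466 lower and 4018 higher at 12 h, and 4416 lower and 4378 higher at 24 h. Of 39 other light harvesting and photosystem genes, 35 were lower in the NAA50 line at 12 h and 31 at 24 h, and 0 were higher, and with scaling to library size alone these were 32 and 31. PSBO2, of the oxygen-evolving complex, differed by -0.93 ± 0.14 after 12 h (edgeR, adjusted p = 6.86e-05), and its 24 h difference was -0.99 ± 0.14 (adjusted p = 3.35e-05). The differences for LHB1B1 were -2.46 and -2.68. Of 18 other xyloglucan endotransglucosylase genes, 10 were lower and 1 higher at 12 h, and 10 lower and 2 higher at 24 h. XTH9 stood lower at 24 h (-3.24 ± 0.43, adjusted p = 2.25e-05) and XTH31 at 12 h (-4.31 ± 0.69, adjusted p = 1.36e-04). XTH19 was instead higher, by 2.81 ± 0.53 after 12 h (edgeR, adjusted p = 5.15e-04), and its 24 h difference was 5.25 ± 0.61 (adjusted p = 6.00e-06). The XTH genes thus held calls in both directions, under each of the 3 scalings.

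Of 26 other UMAMIT genes, 11 were lower and 3 higher at 12 h, and 12 lower and 4 higher at 24 h. UMAMIT22 differed by -3.86 ± 0.36 at 12 h (edgeR, adjusted p = 8.14e-07), and UMAMIT8 by 6.46 ± 0.30 after 12 h (adjusted p = 6.87e-10). For UMAMIT8 the 24 h difference was 8.66 ± 0.33 (adjusted p = 6.03e-11). Of 7 other SWEET genes, 4 were lower and 1 higher at 12 h, and 1 lower and 3 higher at 24 h. SAG29, also named SWEET15, averaged 158 CPM at 12 h and 296 CPM at 24 h in the NAA50 line, against 0.467 and 0.497 CPM in the scrambled line. SWEET13 differed by -4.04 ± 0.32 after 12 h (edgeR, adjusted p = 1.67e-07), and its 24 h difference was -3.74 ± 0.38 (adjusted p = 1.59e-06). Both transporter families held genes called in opposite directions, under each of the 3 scalings, and those among the 54 are on the lower side by choice.

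By position, 14 of the 54 genes lie on chromosome 5 (25.9%, against 23.4% of tested genes) and 7 on chromosome 4 (12.96%, against 15.4%). Their exon length had a median of 1560.5 bp, against 1804 bp in tested genes, and their longest transcripts had a median of 3 exons against 5. By words in the product name, 5 were cell wall genes (9.26%, against 1.65% of tested genes) and 5 were transporters (9.26%, against 4.05%). No member had a near-identical copy, and 17 overlap another annotated gene, 12 of them on the opposite strand, where reads may be shared.

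Short letter strings known from plant promoters were searched on both strands of the 250 bases before each annotated start. TGTCTC, the core of an auxin response element, was in 11 of 54 windows (20.4%) and in 10.4% of those of tested genes. Of these 11 windows 4 overlap an annotated exon of a neighbouring gene, as 12 of the 54 windows do, and outside such windows the string was in 7 of 42 (16.7%) and in 9.19% of 12333 tested genes. The site II string TGGGCC was in 1 of 54 windows (1.85%) and in 17.1%. Of the W-box forms, TTGACT was in 4 windows (7.41%, tested genes 18.9%) and TTGACC in 3 (5.56%, tested genes 2229 of 18195). The GCC-box string GCCGCC was in 0 windows (tested genes 2.03%). The evening element AAAATATCT was in 2 windows (3.70%, tested genes 2.51%), the telo-box AAACCCTA in 1 (1.85%, tested genes 3.58%), and the G-box CACGTG in 2 (3.70%, tested genes 7.58%). The TATA-box string TATAAA was in 21 windows (38.9%, tested genes 45.5%). None of these strings contains another, and a match is only a description of the letters. The 4 windows below hold TGTCTC, in capitals in either orientation (a reversed match reads GAGACA), overlap no annotated exon, and belong to genes whose values are given above. They are read from TAIR10.1 of RefSeq on each gene's strand. They lie at chr5:26298478-26298727, chr2:18625938-18626187, chr1:11137289-11137538 and chr1:28828993-28829242, all on the plus strand.
XTH6: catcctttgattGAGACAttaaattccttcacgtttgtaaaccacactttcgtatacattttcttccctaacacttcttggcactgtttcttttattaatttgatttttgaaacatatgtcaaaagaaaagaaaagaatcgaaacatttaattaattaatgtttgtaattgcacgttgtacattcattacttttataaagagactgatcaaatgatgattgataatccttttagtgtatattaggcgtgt
AT2G45180: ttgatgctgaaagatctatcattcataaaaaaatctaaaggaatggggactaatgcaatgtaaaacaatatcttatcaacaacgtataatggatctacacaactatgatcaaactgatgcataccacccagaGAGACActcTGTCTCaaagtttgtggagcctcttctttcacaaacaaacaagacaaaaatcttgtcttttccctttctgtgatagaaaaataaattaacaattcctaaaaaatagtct
MIR167d: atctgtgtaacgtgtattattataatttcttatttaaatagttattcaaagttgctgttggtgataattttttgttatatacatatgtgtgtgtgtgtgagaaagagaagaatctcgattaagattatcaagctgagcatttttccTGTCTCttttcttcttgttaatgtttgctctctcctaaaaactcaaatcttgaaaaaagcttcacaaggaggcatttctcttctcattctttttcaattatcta
AT1G76800: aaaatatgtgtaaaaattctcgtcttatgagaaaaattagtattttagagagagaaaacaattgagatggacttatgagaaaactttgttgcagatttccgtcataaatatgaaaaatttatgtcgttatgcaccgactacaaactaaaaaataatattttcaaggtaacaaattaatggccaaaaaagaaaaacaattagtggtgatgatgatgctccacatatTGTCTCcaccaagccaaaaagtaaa
AT2G45180 has the string in both orientations, 3 bases apart, and the others have it in 1 place each.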

How the data were processed

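Counts per gene, as deposited by the authors for 18 leaf libraries (whole numbers, 23790 genes, all 18 columns used), were analysed. Per the labels' protocols, the library kit was a stranded mRNA kit. Per the submitters' processing notes, Trimmomatic, STAR, DESeq2 and the build TAIR10 were used, and no source used here gives their versions, the counting program or its strand setting. Names and positions came from RefSeq TAIR10.1, which holds 23500 of the gene identifiers (98.8%). edgeR 4.0.16 (R 4.3.3) kept 18344 genes (filterByExpr, minimum count 10), scaled them by TMM and fitted 1 mean for each of 6 groups (biological coefficient of variation 18.2%). Contrasts were tested with the quasi-likelihood test. Calls have a Benjamini-Hochberg adjusted p under 0.05 over all tested genes. CPM are on effective library sizes. DESeq2 1.42.0, other scalings and filters, a replicate block and leaving out each library were alternatives. Same-numbered libraries of the lines deviated together at 12 h (correlations 0.128 to 0.342 over the 3 numbers, each above 0.1). This is a hint of pairing from the data and not from the labels. A fit of the 12 h groups paired by number was therefore added as an alternative. All other p-values at 12 h come from the unpaired fit, unless a replicate block is named. Near-identical copies were sought with BLAST 2.17.0.

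The members, the gene lists and the tests were chosen with earlier results of these data known. Named genes are NAA50, the members by lowest ratio, highest level per kilobase, list membership or smallest adjusted p, the genes beside the bound, and the list genes with the smallest adjusted p in lists that hold a member; further members, the microRNA relatives and the dehydrogenase array were chosen after their values were seen. The role groups were drawn up by hand from annotated names. The fitting steps were tested on simulated counts.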

Additional observations from a re-analysis of the deposited data

Results flagged for a closer look

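AT5G02760, which encodes a protein phosphatase 2C, was marked because its change between 12 and 24 h differed between the 2 lines by a test of that difference, at -3.28 on the log2 scale (edgeR interaction, adjusted p = 0.0149). In the NAA50 line it was at 1.14 ± 0.0420 CPM at 12 h and 0.238 ± 0.246 CPM at 24 h, against 6.06 ± 0.212 and 13.9 ± 7.15 CPM in the scrambled line (SD, n = 3). The call held with each single library left out.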

How the results depend on the processing

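Under 2 other scalings (TMM on all genes with a count, DESeq2 size factors) the rule gave the same 54 genes, and with library size alone 49 of them. A minimum of 2 CPM gave 81 genes and one of 10 CPM gave 36, and a bound of 1/3 gave 107 and one of 1/8 gave 11, by construction. With 1 library left out the set had 42 to 77 genes, 77 (52 shared) without NAA50 library 3 of 24 h and 42 (40 shared) without scrambled library 3 of 24 h. The 26 calls of the scrambled line at 12 h became 16 to 24 with 1 library left out, the 25 at 24 h became 18 to 33, and the 0 at 0 h stayed 0. The 4 calls of the NAA50 line at 24 h relative to 12 h became 8 with DESeq2 (2 higher), 2 with a replicate block and 1 to 8 with 1 library left out. The single call for the difference in that change became 3 with DESeq2, 2 with library size scaling and 1 to 6 with 1 library left out. The cause of these moves was not tested. List genes outside the 54 gave 246 calls at 12 h and 249 at 24 h, and 214 to 234 and 215 to 237 with 1 library left out, where fewer samples enter the fit. Of 658 repeats for 53 named results, 617 kept direction and call, 40 lost the call, 1 gained it and 0 reversed. With the block, LNG1 and AT2G29300 lost the calls for 24 h against 12 h (adjusted p = 0.0532 and 0.0570), and AT2G29300 also lost it with only those groups in the fit (0.0690). XTH32 at 24 h lost its call without NAA50 library 2, and SWEET1 without that library or scrambled library 2 of 24 h. DESeq2 gave no adjusted p for ACA1 at 12 h. Same-numbered libraries correlated at -0.485 to 0.409 over 45 pairs, 21 of them above 0.1. All 3 pairs were above 0.1 for 2 of 15 pairs of groups, the lines at 12 h and NAA50 24 h with scrambled 0 h, which is not a comparison made here, and the samples of other comparisons share only a number. With the 12 h groups alone and the replicate block, chosen after seeing the data, the list genes gave 292 calls and ARF6 gained its call; the block changed no other call at 12 h. Counts of under 10 in 3 libraries, as for AT5G02760 and AT1G13650 in the NAA50 line at 24 h, limit the precision of their ratios.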

Other observations

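Gene lists that hold none of the 54 genes were also compared between the lines, over 18344 tested genes of which 4018 were higher and 4466 lower in the NAA50 line at 12 h, and 4378 and 4416 at 24 h (edgeR). Of 32 wax and cutin genes, which build the leaf surface, 11 were higher and 4 lower at 12 h, and 19 higher and 2 lower at 24 h, with median log2 differences of 0.08 and 1.17. Of 25 aliphatic glucosinolate genes, 18 were lower and 3 higher at 12 h, and 16 lower and 3 higher at 24 h, with medians of -1.97 and -0.97. Sulfate transport and assimilation had 17 of 20 genes lower and 1 higher at 12 h, and 9 lower and 1 higher at 24 h (medians -1.44 and -0.27). Of 27 salicylic acid and immunity genes, 10 were lower at 12 h and 14 at 24 h, and 0 were higher, but the 12 h count was 5 with scaling to library size alone. Auxin response and transport had 24 of 47 genes lower and 8 higher at 12 h, and 22 lower and 11 higher at 24 h.

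The other lists were mixed, or differed between the 2 times. Phenylpropanoid and lignin enzymes (19 genes) had 1 higher and 8 lower at 12 h, and 8 higher and 2 lower at 24 h. Indole glucosinolate genes (17) had 3 higher and 8 lower, then 7 higher and 4 lower, expansins (19) 4 and 9, then 6 and 5, and clock genes (24) 3 and 7, then 8 and 3. With scaling to library size alone the clock genes were even at 12 h, with 5 higher and 5 lower. Sugar uptake transporters (12) had 3 higher and 3 lower at 12 h and 5 and 5 at 24 h, and the 12 h counts were 5 and 0 with that scaling. The lists for nitrate (22 genes), zinc and iron (23), trichome and root hair fate (9) and flavonols (12) had 1 to 8 higher and 3 to 7 lower at each time. Whether the 12 and 24 h counts of a list differ was not tested.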
